A study of Homo sapiens with 16 samples.

Results

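The comparison described here is the RNA of cells that received sorafenib against the RNA of cells that received DMSO, the solvent. Its members were the 14915 of 59609 listed genes with a mean of 10 or more normalized read counts over the 6 libraries, a rule that does not use the difference between the groups. Polyadenylated RNA was sequenced from 3 samples with sorafenib and 3 with DMSO, all labelled as Huh7, a human hepatocellular carcinoma line, with no genetic change named for either group. The labels gave no dose and no treatment time. Nothing in them said that replicates were separate cultures, so p-values measure the spread between these samples, which may be technical. The series of 16 samples also held 6 RNA libraries of cells with a transgene or an empty vector, not used here, and open chromatin maps by ATAC-seq from 2 samples with sorafenib and 2 with DMSO, used here only for promoters.

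Sorafenib is a kinase inhibitor given against liver cancer, and its targets include RAF kinases, which act above ERK in growth factor signalling, and the receptors of VEGF and PDGF. Growth factor, cytokine and stress signals reach the nucleus through transcription factors such as AP-1, EGR, NF-kB and ATF proteins. Some of their genes are themselves induced within a short time, and their target genes include chemokines, cytokines and adhesion molecules. Long noncoding RNAs are transcripts with no known protein product, many of them made beside or opposite a protein gene and present at low levels.

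The reads counted in genes ran from 16549330 to 21082356 per library. Markers that define hepatocytes and hepatoma cells were largely absent. Of 25 listed, 21 had a mean under 10 and 19 a mean under 3, among them ALB, AFP, APOB, TTR, FGA and GPC3, while CPS1, RBP4, HNF4A and CYP3A5 were present. These values go against the label, and the cells are called here only by it, as cells labelled Huh7. The summed level of the list was 6986 to 7353 with sorafenib and 17568 to 18496 with DMSO, most of it CPS1, the first enzyme of the urea cycle. The sums of 10 leukocyte markers (40.5 to 48.1 with sorafenib and 36.6 to 50.2 with DMSO) and 10 endothelial markers (53.2 to 68.9 and 71.3 to 89.5) were low in both groups. KRT7, a keratin of bile duct and other simple epithelia, had a mean of 17152. In the list of 10 bile duct markers that holds it, 6 had a mean of 10 or more. The other 4 were under 10, KRT19 (0.80) and CFTR (2.29) among them. DMSO replicate 3 stood somewhat apart. Counts of it and another DMSO library differed by a chi-square of 9.34 and 11.5 per degree of freedom, against 3.18 for the other DMSO pair and 3.28 to 5.01 between sorafenib libraries. In bulk RNA such as this, fewer cells of a type and less RNA per cell cannot be told apart.

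Most genes that could be tested differed between the groups. At an adjusted p of 0.05 (limma), 5137 of 14915 genes (34.4%) were higher with sorafenib and 5347 (35.8%) were lower, 70.3% in all. Without DMSO replicate 3 the counts were 5180 and 5405. Among the called genes, large changes were more often rises. With a log2 change of at least 1, 2175 genes (14.6%) were higher, and with one of -1 or less 1024 (6.87%) were lower. These counts include genes that passed the minimum through 1 group. Of the tested genes 907 had a DMSO mean under 10 and 256 a sorafenib mean under 10. Of the 5137 higher genes 4343 had a DMSO mean of 10 or more. Of the 5347 lower genes 5205 had a sorafenib mean of 10 or more. The values of the groups did not overlap for 10881 genes (73%). The balance of rises and falls rested on the scaling, because the sorafenib libraries had smaller totals after the deposited size factors. Of the calls, 49.0% were higher with the deposited factors, 51.7% with TMM factors and 66.3% (6872 higher and 3496 lower) after scaling to the library total. That last scaling moved the median of all genes up by 0.22 on the log2 scale, and counts and medians below can be read against it. The authors' deposited table listed 5450 genes as higher and 4943 as lower, of 22424 with an adjusted p.

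Reads were spread over more genes with sorafenib. The sorafenib libraries had reads in 25652, 25412 and 24454 genes and the DMSO libraries in 21400, 22202 and 21330. The groups did not overlap, and the sorafenib library with the fewest genes also had the fewest reads of all 6 libraries (exact permutation test, two-sided p = 0.1, the smallest that 3 against 3 can give). In all, 1161 genes had reads in every sorafenib library and in no DMSO library: 434 were protein coding, 162 noncoding by biotype or name, 433 known only by a clone name and 129 pseudogenes. The reverse held for 104 genes. The 10 most abundant genes of a library took 5.31% to 5.43% of its reads with sorafenib and 6.64% to 6.88% with DMSO (exact permutation p = 0.1), so the top of the distribution was flatter.

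**Figure D1:**
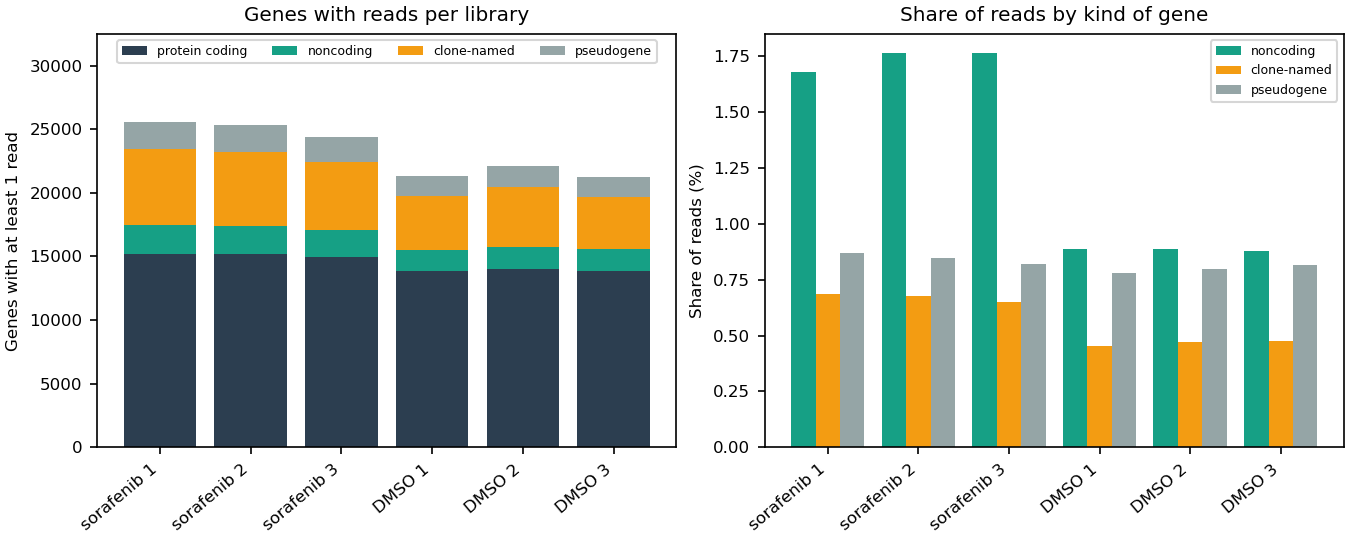
Left, number of genes with at least 1 read in each library, stacked by kind of gene. Right, share of a library's reads (%) by kind. All 3 sorafenib libraries had more genes with reads than any DMSO library, and a larger noncoding share.

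Change followed abundance. When the tested genes were ordered by mean over the 6 libraries and divided into deciles of 1491 or 1492 genes, the median log2 change fell at every step. It was 0.52 in the lowest decile (means up to 19.9), 0.06 in the fifth and -0.32 in the highest (means of 2667 or more). In the lowest decile 39.01% of genes were higher and 10.9% lower, and in the highest 15.3% were higher and 67.6% lower. The highest decile was therefore mostly made of genes that fell, by a modest amount. Each library was also described by the median deviation of its highest decile minus that of its lowest decile. This was -0.47, -0.47 and -0.44 (log2) for sorafenib and 0.34, 0.38 and 0.49 for DMSO (exact permutation p = 0.1, the smallest possible). DMSO replicate 3 was the most extreme of its group, and without it the medians of the lowest and highest decile were 0.47 and -0.29.

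The upper end of this trend was firmer than the lower end. The highest decile kept a negative median when genes were ordered by the DMSO mean (-0.38), by the sorafenib mean (-0.22), with TMM factors (-0.28) and after scaling to the library total (-0.086). For the lowest decile the order decided the sign: it was 1.54 by the DMSO mean and -0.12 by the sorafenib mean. Kind of gene moved with the trend. Among protein-coding genes alone the medians were 0.27 in the lowest decile and -0.32 in the highest. Noncoding genes by biotype or name had medians of 0.76 in the lowest decile (229 genes) and 1.25 in the highest (9 genes), so their medians did not follow the fall seen in coding genes. The 543 clone-named genes in the lowest decile had a median of 0.79.

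**Figure D2:**
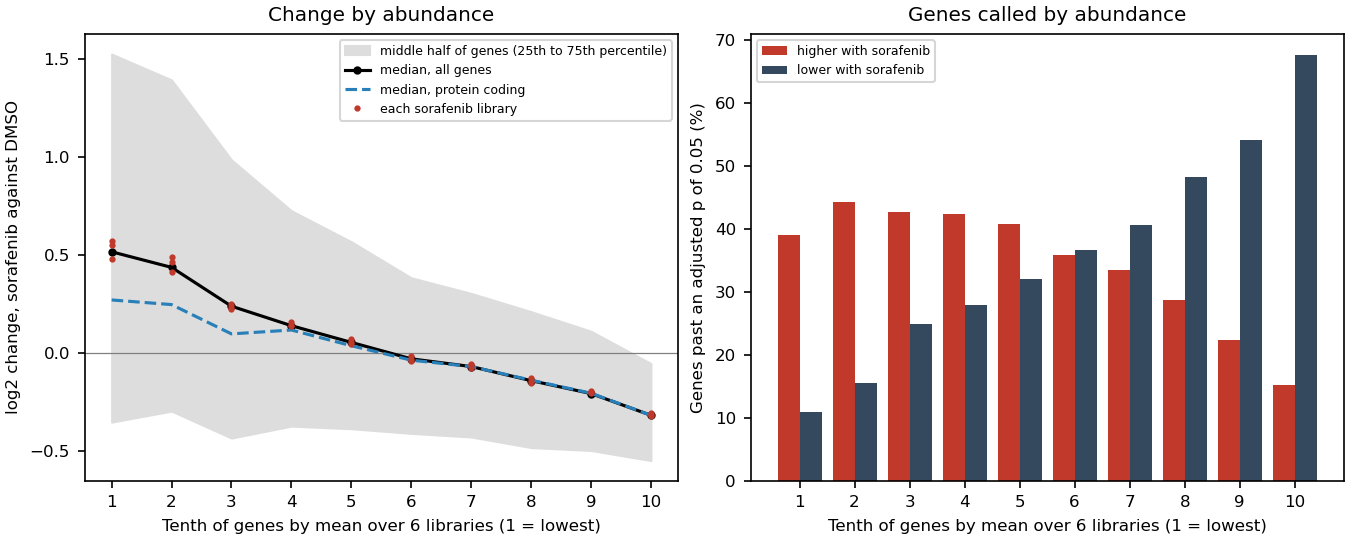
Left, median log2 change of sorafenib against DMSO (line) with the 25th to 75th percentile of genes (grey), for deciles of genes by mean, with the protein-coding median (dashed) and 1 red point per sorafenib library. Right, percentage of each decile past an adjusted p of 0.05 in each direction. The median falls from 0.52 to -0.32 and the points of all 3 sorafenib libraries follow it.

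Transcription factors as a class were called at shares near those of all genes. Of 661 listed factors in the table, 449 were tested, of which 164 (36.5%) were higher and 166 (37.0%) lower, against 34.4% and 35.8% of all genes tested. The median log2 change was 0.0029, and 0.04 with TMM factors. After scaling to the library total it was 0.23, with 212 higher and 114 lower, so the even split belongs to the deposited scaling. Without DMSO replicate 3 the counts were 165 and 172. Among factors with a mean of 100 or more, the 5 largest rises were in bZIP factors, which bind DNA as pairs, and the early response gene EGR1. The 3 largest falls at that level were in a homeobox, a zinc finger and a forkhead factor. Factors under that mean included larger values, up to 5.18 and down to -2.92 in homeodomain genes.

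CREB5, a bZIP factor that binds cyclic AMP response elements (chr7:28299321-28825894), had 713, 747 and 576 normalized read counts with sorafenib and 6.75, 4.82 and 8.73 with DMSO. Its log2 rise was 6.47 (SE 0.20, adjusted p = 1.5e-13), the largest among factors with a mean of 100 or more. EGR1, a zinc finger factor induced early after growth factor signals, had 867, 1068 and 944 with sorafenib and 18.0, 21.2 and 14.2 with DMSO (log2 rise 5.69, SE 0.15). The groups lay far apart for both genes. ATF3, a stress-induced bZIP factor, went from 298, 270 and 309 with DMSO to 5229, 5415 and 5124 (log2 rise 4.17, SE 0.07). FOS and JUN, the partners that form AP-1, rose by 4.10 and 3.85, JUN to 13291, 13695 and 12509 from 976, 856 and 897. FOS had 467, 468 and 471 with sorafenib against 31.5, 27.96 and 20.7. Groups that do not overlap were a condition for naming these genes. CREB5, with a DMSO mean of 6.77, passed the minimum through its sorafenib values.

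HOXA13, a homeobox gene of limb and hindgut patterning (chr7:27194364-27200091), had 74.3, 77.0 and 76.9 normalized read counts with sorafenib and 426, 414 and 404 with DMSO, a log2 change of -2.43 (SE 0.11). ZBTB7B, a zinc finger factor known from T cell lineage choice, had 657, 670 and 613 against 2624, 2633 and 2819 (-2.06, SE 0.07). FOXQ1, a forkhead factor, had 230, 198 and 194 against 709, 672 and 738 (-1.77, SE 0.09). These 3 genes were the largest falls among factors with a mean of 100 or more and groups that do not overlap, which the choice required.

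The EGR1 promoter is shown because it held 2 matches to the CArG box, the element that binds serum response factor, a regulator of early response genes. The 250 bases before the RefSeq start site (GRCh38.p14, chr5:138465229-138465478, plus strand) are in lower case with the matches in capitals, at -105 to -96 and -83 to -74 from the start site.
EGR1: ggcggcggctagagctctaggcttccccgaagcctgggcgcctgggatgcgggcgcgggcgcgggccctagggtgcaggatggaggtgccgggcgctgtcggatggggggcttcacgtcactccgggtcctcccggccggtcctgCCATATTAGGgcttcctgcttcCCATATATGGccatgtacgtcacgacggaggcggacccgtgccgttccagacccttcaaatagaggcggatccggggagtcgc
The CArG box was present in the same window of 0.94% of 10581 tested genes with a RefSeq promoter and of 0.80% of the 375 among them that rose by a log2 change of at least 2. A peak overlapped the EGR1 promoter in all 4 ATAC-seq libraries, with a fold enrichment, as the authors' peak caller gave it, of 6.01 and 7.18 with DMSO and 8.83 and 9.92 with sorafenib. The other sets of promoters and their peaks are described with the chemokines.

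In several signal-driven families more members were higher than lower. Of 29 AP-1 and ATF factors 13 (44.8%) were higher and 9 (31.0%) lower, not far from the 34.4% and 35.8% of all genes, and 16 and 5 after scaling to the library total. The rises included FOSL1 (log2 change 2.39) and DDIT3 (2.94), a factor of the stress response to unfolded protein. Among members with a mean of 100 or more the largest falls were smaller, in ATF1 (-0.58) and CREB3L2 (-0.57). Of 20 CEBP, PAR and MAF factors 11 were higher and 5 lower, with MAFF, a small MAF protein, at 3.18 and CEBPA, a factor of hepatocyte and fat cell differentiation, at -1.65. Among 28 factors of the NF-kB, STAT, IRF, NFAT and SMAD families 15 were higher and 5 lower, and 19 and 2 after scaling to the library total. The rises included IRF1 (2.72), RELB (2.34) and NFKB2 (1.61). RELB and NFKB2 encode the partners of the noncanonical NF-kB dimer. Of 19 ETS factors 9 were higher and 4 lower, and 11 and 1 after scaling to the library total, with ETV5 at 2.72 and ETS1 at 1.63. In the EGR and NR4A list 3 of 6 tested genes were higher and none was lower, and NR4A1 was not among those past the threshold (-0.13).

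Developmental families went the other way in count. Where 34.4% of all genes tested were higher and 35.8% lower, 19 (22.1%) of 86 homeodomain genes were higher and 49 (57.0%) lower (median -0.45). Of 27 forkhead genes 7 (25.9%) were higher and 14 (51.9%) lower (median -0.49). Both medians stayed below 0 after scaling to the library total (-0.22 and -0.26), which gave 25 higher and 35 lower homeodomain genes. HOXB9 (2.05), PBX4 (2.00) and ISL2 (1.66) rose against that majority, and POU2F1 (-1.76) and OTX1 (-1.71) followed HOXA13 downward. Of 27 nuclear receptors 8 (29.6%) were higher and 15 (55.6%) lower with a median of -0.20, which became 0.02 after scaling to the library total. HNF4A, a receptor that defines hepatocyte identity, fell from 340 ± 9.03 to 117 ± 31.8 (SD, n = 3 each), and RXRA, the common partner of many receptors, fell by 1.34 on the log2 scale. VDR, the vitamin D receptor, rose by 1.30, and so did the clock receptors NR1D1 (1.22) and NR1D2 (1.17). Of 20 SOX, TCF and other HMG box factors 2 (10%) were higher and 8 (40%) lower, a lower share near the 35.8% of all genes. Their median of -0.18 became 0.04 after scaling to the library total.

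Among the remaining factor families, helix-loop-helix, C2H2 and E2F factors had rises and falls in nearer numbers with the deposited scaling only. Of 8 heat shock and nutrient factors 7 were higher and 1 lower, and the same after scaling to the library total. Helix-loop-helix factors were higher in 21 of 49 cases and lower in 15, and in 28 and 13 after scaling to the library total. All 3 tested ID genes, inhibitors that pair with other helix-loop-helix proteins, were higher: ID1 by 1.23, ID2 by 2.44 and ID3 by 1.51. MAX (-0.78) and MNT (-1.23), which pair with or oppose MYC, were lower. Among 53 C2H2 factors of the SNAI, ZEB, GLI and related families 18 were higher and 17 lower, and 22 and 11 after scaling to the library total. SNAI2 (3.07) and SNAI1 (2.55), repressors of epithelial genes, were among the rises, and GLI2 (-1.19), a hedgehog effector, among the falls. Of 12 E2F and cell cycle factors 5 were higher and 5 lower, and 7 and 2 after scaling to the library total. KLF and SP factors were higher in 7 of 17 cases, with KLF6 at 2.83 and KLF10 at 1.94, and lower in 3, with SP1 at -1.10, and scaling to the library total gave 12 and 2.

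Secreted proteins were more often lower than higher, and in the chemokine and the cytokine lists the order was the opposite. Of 713 listed genes 287 were tested, of which 81 (28.2%) were higher and 155 (54.0%) lower, against 34.4% and 35.8% of all genes tested. Counts of the secreted families below can be read against the same shares of all genes. The median log2 change was -0.38, -0.35 with TMM factors and -0.17 after scaling to the library total. Without DMSO replicate 3 the counts were 79 and 151. The lists follow gene families and include ligands that stay in the membrane, such as ephrins, jagged proteins and some semaphorins. Of the tested genes 22 had a DMSO mean under 10 and so entered through their sorafenib values, and 5 entered through DMSO in the same way.

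Chemokines that attract neutrophils rose together. CXCL8, the main human neutrophil attractant, had 1211, 1297 and 1311 normalized read counts with sorafenib and 6.75, 3.86 and 5.46 with DMSO (log2 rise 7.67, SE 0.17, adjusted p = 2.8e-15). CXCL3 had 1198, 1112 and 1123 against 15.7, 13.5 and 15.3 (6.18, SE 0.12). Both genes went from close to background to the level of moderately abundant transcripts in every library. CXCL2 rose by 4.81 and CXCL1 by 4.48. CCL20, which attracts lymphocytes and dendritic cells, had 184, 203 and 229 with sorafenib, while DMSO held 4 reads in all, every one in replicate 2, and the fitted rise was 6.92 (SE 0.51). Of 41 listed chemokines only 8 were tested, 3 of them through their sorafenib values. CXCL16 (-0.48) and CCL26 (-0.70) were lower, and neither passed the threshold as lower after scaling to the library total. PTPRC, the marker of all leukocytes, had 0 reads with sorafenib and 3 with DMSO, and CD3E had none in any library. The myeloid markers CD14 (13.5 to 18.2 with sorafenib and 4.37 to 7.71 with DMSO) and ITGAM (8.44 to 13.6 and 0) were low in both groups but did not overlap between them, and their part in the result was not tested.

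The promoters of CXCL8, CXCL3 and IL6 are shown because each held a match to GGANTTTCC, a form of the NF-kB element, in the 250 bases before the RefSeq start site (GRCh38.p14). They span chr4:73740319-73740568 (plus strand), chr4:74038690-74038939 (minus strand) and chr7:22726950-22727199 (plus strand). Capitals mark that element, at -91 to -83, -78 to -70 and -72 to -64 from the start site, and in CXCL8 also an AP-1 element, TGANTCA, at -137 to -131.
CXCL8: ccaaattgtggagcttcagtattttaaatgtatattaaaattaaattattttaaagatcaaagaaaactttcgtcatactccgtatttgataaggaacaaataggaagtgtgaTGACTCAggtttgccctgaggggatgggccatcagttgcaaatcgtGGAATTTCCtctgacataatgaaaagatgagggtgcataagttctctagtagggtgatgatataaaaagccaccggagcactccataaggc
CXCL3: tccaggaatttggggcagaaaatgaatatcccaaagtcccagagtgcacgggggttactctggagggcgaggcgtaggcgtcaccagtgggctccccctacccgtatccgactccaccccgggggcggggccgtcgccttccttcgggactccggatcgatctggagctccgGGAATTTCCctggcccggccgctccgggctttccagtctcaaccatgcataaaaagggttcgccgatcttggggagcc
IL6: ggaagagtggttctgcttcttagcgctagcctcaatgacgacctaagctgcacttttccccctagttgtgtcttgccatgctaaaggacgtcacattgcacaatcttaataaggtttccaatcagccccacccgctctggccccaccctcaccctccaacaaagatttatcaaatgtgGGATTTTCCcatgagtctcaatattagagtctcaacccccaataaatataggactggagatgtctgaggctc
Motifs were searched on both strands, and the elements named here do not overlap in these windows. The NF-kB element was present in 1.46% of all 10581 promoters, in 2.19% of those of genes that were higher, in 0.83% of those that were lower and in 4.80% of the 375 with a log2 rise of at least 2. Of the 14 promoters of named transcription factor, secreted and surface genes that rose, 5 held it: CXCL3, CXCL8, ICAM1, IL6 and TNFRSF9. The AP-1 element was in 3.99% of all promoters and in 6.93% of the 375. The cyclic AMP response element TGACGTCA was in 2.96% and 4.80%. The core of the metal response element, TGCNCNC, was so common, in 56.6% and 49.6%, that a match tells little about a gene. A match is a stretch of letters and not a measured binding site.

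These promoters were mostly accessible in both conditions. CXCL8 had a peak of 15.6-fold to 17.9-fold enrichment in all 4 ATAC-seq libraries, CXCL3 of 13.4 to 17.2 and IL6 of 9.50 to 10.2. The ranges with and without sorafenib overlapped for CXCL8, IL6 and CXCL3. For CXCL3 the DMSO libraries had 13.4 and 16.8 against 17.2 and 16.4 with sorafenib. Of all promoters 82.5% overlapped a peak in all 4 libraries, against 85.8% for genes that were higher, 83.1% for genes that were lower and 78.0% for genes not called. The share was 72.8% among the 375 with a log2 rise of at least 2. Of the 14 named genes 11 had a peak in all 4 libraries 1 in both sorafenib libraries only and 2 in none.

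Cytokines moved in both directions. Of 21 interleukins and cytokines 12 were higher, 6 lower and 3 not past the threshold, and 4 of the 21 had a DMSO mean under 10. IL6 had 493, 538 and 547 with sorafenib and 15.7, 9.64 and 21.8 with DMSO (log2 rise 5.04, SE 0.22). IL11, which signals through the same shared receptor subunit, went the other way, with 257, 269 and 250 against 1319, 1285 and 1256 (-2.31, SE 0.07). Groups that do not overlap were a condition for naming IL6 and IL11. LIF (-0.72) and CLCF1 (-0.80), further ligands of that subunit, were also lower, as were TNFSF9 (-0.85), a ligand of the TNF family, and EBI3 (-0.50), a subunit of heterodimeric cytokines. CSF1, the macrophage growth factor, rose by 2.03 and IL18 by 1.25. PTX3, a soluble pattern recognition protein of innate immunity, had 1023, 1158 and 1074 with sorafenib and 12.4, 13.5 and 9.82 with DMSO (log2 rise 6.40, SE 0.14).

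Growth factor and developmental ligands were divided. Of 37 ligands of receptor tyrosine kinases 12 were higher and 18 lower. The EGF family ligands HBEGF (2.85) and EREG (2.10) rose, while PDGFA (-1.24), PDGFB (-1.38) and BDNF (-1.96) fell. In the list of 35 WNT, hedgehog and Notch ligands and semaphorins 9 were higher and 17 lower. SEMA4C, a membrane-bound semaphorin, had 74.3, 72.5 and 52.3 with sorafenib and 616, 650 and 755 with DMSO, a log2 change of -3.34 (SE 0.14). WNT5A, a ligand of noncanonical WNT signalling, had 221, 247 and 232 against 1472, 1473 and 1286 (-2.59, SE 0.08). The Notch ligands parted, with JAG1 at 1.34 and JAG2 at -1.50. Of 23 TGF-beta and BMP ligands and antagonists 7 were higher, GDF15 (1.68) among them, and 14 lower, including FST (-1.57) and TGFB1 (-0.73), and scaling to the library total gave 8 and 10. Among 25 peptide hormones and other regulators 10 were higher, with VGF at 3.00 and EDN1, the vessel-constricting peptide endothelin, at 2.57, and 13 were lower, with TSKU at -1.92.

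Matrix genes were mostly lower. Of 78 collagens, laminins and matrix glycoproteins 14 were higher and 49 lower (62.8%), with a median of -0.51 that was -0.29 after scaling to the library total. COL5A1, a fibrillar collagen chain, fell from 14579 ± 404 to 5285 ± 200 (SD, n = 3 each). FBN1, the microfibril protein fibrillin, changed by -1.54 and LUM, the proteoglycan lumican, by -1.99. LUM is also a marker of stellate cells and fibroblasts. The sum of 12 such markers was 1214 to 1259 with sorafenib and 2476 to 2731 with DMSO. Without LUM it was 773 to 809 and 779 to 859. Of the 12 markers 7 had a mean of 10 or more and 5 a mean under 3, with POSTN at 0. RGS5 (2.17) and COL3A1 (0.87) were higher, and LUM, DCN (-1.10) and FAP (-0.996) were lower. COL1A1, the most abundant after LUM, did not pass the threshold (-0.08). The similar sums without LUM therefore held changes in both directions. Among the 78 matrix genes, rises at a mean of 100 or more included regulators that sit in the matrix: CCN2 (2.04), CCN1 (1.55) and THBS1 (1.44). Of 46 proteases and inhibitors 9 were higher and 26 lower, and 12 and 20 after scaling to the library total. Of 14 complement and plasma proteins 2 were higher and 10 lower, and 3 and 8 after that scaling. C3, the central complement protein, was among these falls, from 8160 ± 292 to 6110 ± 118. The 2 higher genes had a DMSO mean under 10 and entered through their sorafenib values.

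Surface proteins also fell more often than they rose. Of 838 listed genes 456 were tested, 119 (26.1%) higher and 219 (48.0%) lower, against 34.4% and 35.8% of all genes tested. Counts of the surface families below can be read against the same shares of all genes. The median was -0.28, -0.24 with TMM factors and -0.05 after scaling to the library total, which gave 154 higher and 173 lower. Without DMSO replicate 3 the counts were 116 and 229. Of the tested genes 23 had a DMSO mean under 10 and so entered through their sorafenib values, and 101 of the 119 higher genes had a DMSO mean of 10 or more. NGFR, the p75 neurotrophin receptor (chr17:49495293-49515008), had 272, 251 and 250 normalized read counts with sorafenib and no read in any DMSO library. Against a floor of 3 reads over the group it was at least 245-fold higher. TNFRSF9, a costimulatory receptor of the TNF family, had 216, 270 and 234 against 2.25, 1.93 and 6.55 (log2 rise 5.85, SE 0.32). Both receptors were close to or below the detection limit with DMSO. NGFR is also known from neural crest and melanocyte lineages, whose 10 listed markers summed to 1795 to 1993 with sorafenib and 1218 to 1518 with DMSO. Most of that was MITF, with SOX10 and TYR at 0 in every library. Without MITF the sum was 108 to 127 with sorafenib and 49.5 to 90.6 with DMSO. In this list MITF (log2 change 0.44), TUBB3 (1.75) and SYT1 (0.83) were higher and none was lower. The part of these lineages in the result was not tested.

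The other named rises at the surface, chosen among genes with a mean of 100 or more, were in genes well above background with DMSO. SLC44A2, a choline transporter, had 2401, 2209 and 2247 with sorafenib and 205, 188 and 211 with DMSO (log2 rise 3.50, SE 0.08). CLDN1, a tight junction claudin, had 2204, 2386 and 2242 against 485, 457 and 408 (2.34, SE 0.07). ICAM1, an adhesion molecule for leukocytes, had 1840, 1890 and 2006 against 427, 403 and 427 (2.19, SE 0.07). That the groups do not overlap was a condition for naming these genes. NOTCH3, a Notch receptor (chr19:15159038-15200995), was the largest fall, with 559, 541 and 525 against 3445, 3454 and 3524 (-2.68, SE 0.06). SSTR1, a somatostatin receptor, had 504, 517 and 461 against 2965, 2694 and 2726 (-2.50, SE 0.07). MCAM, an adhesion molecule of the immunoglobulin family, had 982, 1050 and 1066 against 4733, 4547 and 5025 (-2.21, SE 0.06). All of these falling genes were still well above background with sorafenib.

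**Figure D3:**
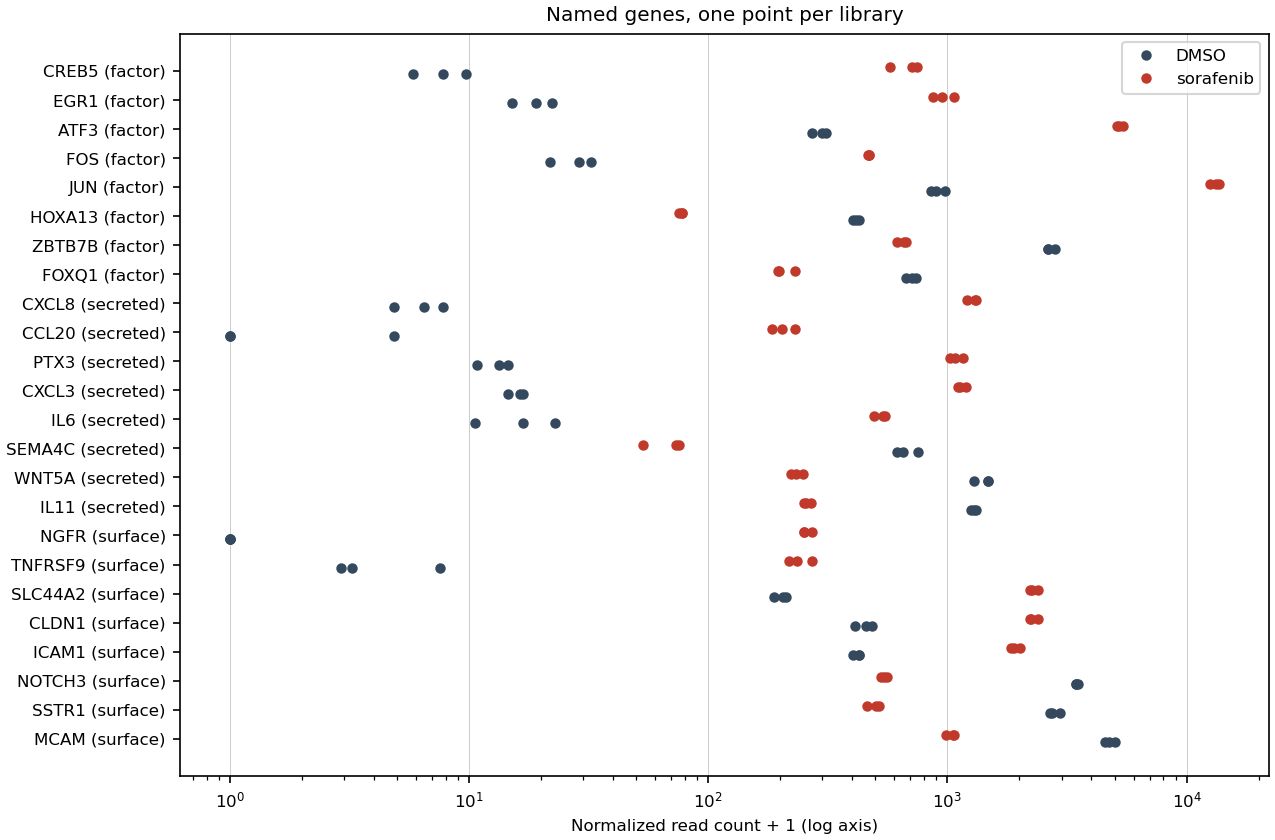
Normalized read count plus 1 (log axis) of the named transcription factor, secreted and surface genes, 1 point per library, sorafenib in red and DMSO in dark blue. Groups that do not overlap were a condition for naming a gene. NGFR stands at 0 reads in all 3 DMSO libraries.

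Receptor families differed in count. Of 17 integrins 10 were lower and 1 was higher. The falls included ITGB1, the beta subunit shared by most matrix-binding integrins (-1.25), and ITGA5, its partner in the fibronectin receptor (-1.36), and the rise was ITGB8 (2.09). ITGB4, the subunit of hemidesmosomes, did not pass the threshold (-0.01). Of 49 TGF-beta, WNT, Notch and guidance receptors 13 were higher and 31 lower. NOTCH1 rose by 0.51 while NOTCH3 fell, and among WNT receptors FZD7 rose by 1.32 while FZD2 (-1.45) and LGR4 (-1.71) fell. Of 26 receptor tyrosine kinases 5 were higher, among them EPHA2 (0.85) and FGFR1 (0.82), and 14 were lower, among them EPHB4 (-1.65), INSR (-1.41) and IGF1R (-1.06), and scaling to the library total gave 8 and 12.

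Of 56 cytokine and TNF family receptors 17 were higher and 17 lower, and 19 and 10 after scaling to the library total. Their median of -0.03 became 0.0022 with TMM factors and 0.19 after scaling to the library total. Receptors of the same ligand moved apart in this list. Of the TRAIL receptors, TNFRSF10B (1.09) and the decoy TNFRSF10D (1.88) rose and TNFRSF10A (-1.01) fell. TNFRSF1A, the main TNF receptor of most cells, fell by 1.83 on the log2 scale and CXCR4 by 1.42. Of 56 immunoglobulin fold and related adhesion proteins 16 were higher, including CD83 (2.08) and the proteoglycan SDC4 (1.23), and 31 lower, including SDC1 (-1.33) and SDC3 (-1.89), and scaling to the library total gave 20 and 25.

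Carriers fell more often than they rose, and channels were called at shares nearer to those of all genes. Of 77 solute carriers and lipid receptors 18 were higher and 39 lower, and 25 and 32 after scaling to the library total. The cystine carrier is made of a heavy and a light chain, and these parted: SLC3A2, the heavy chain shared by several carriers, rose by 0.98 and SLC7A11, the light chain, fell from 2516 ± 348 to 1094 ± 39.4 (log2 change -1.19). Of 71 ion channels 20 were higher and 27 (38.03%) lower, against 35.8% of all genes, and their median of -0.09 became 0.14 after scaling to the library total, with 28 higher and 19 lower. TRPM4, a calcium-activated cation channel, rose by 1.66. Of 71 G protein coupled receptors 20 were higher, with the histamine receptor HRH1 at 1.59, and 34 lower, with ADGRG6 at -2.04 and GPRC5A at -1.47, and scaling to the library total gave 25 and 27. Junction proteins were higher in 9 of 33 cases and lower in 16, the connexin GJB5 (-1.74) among the falls, and scaling to the library total gave 13 of each.

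**Figure D4:**
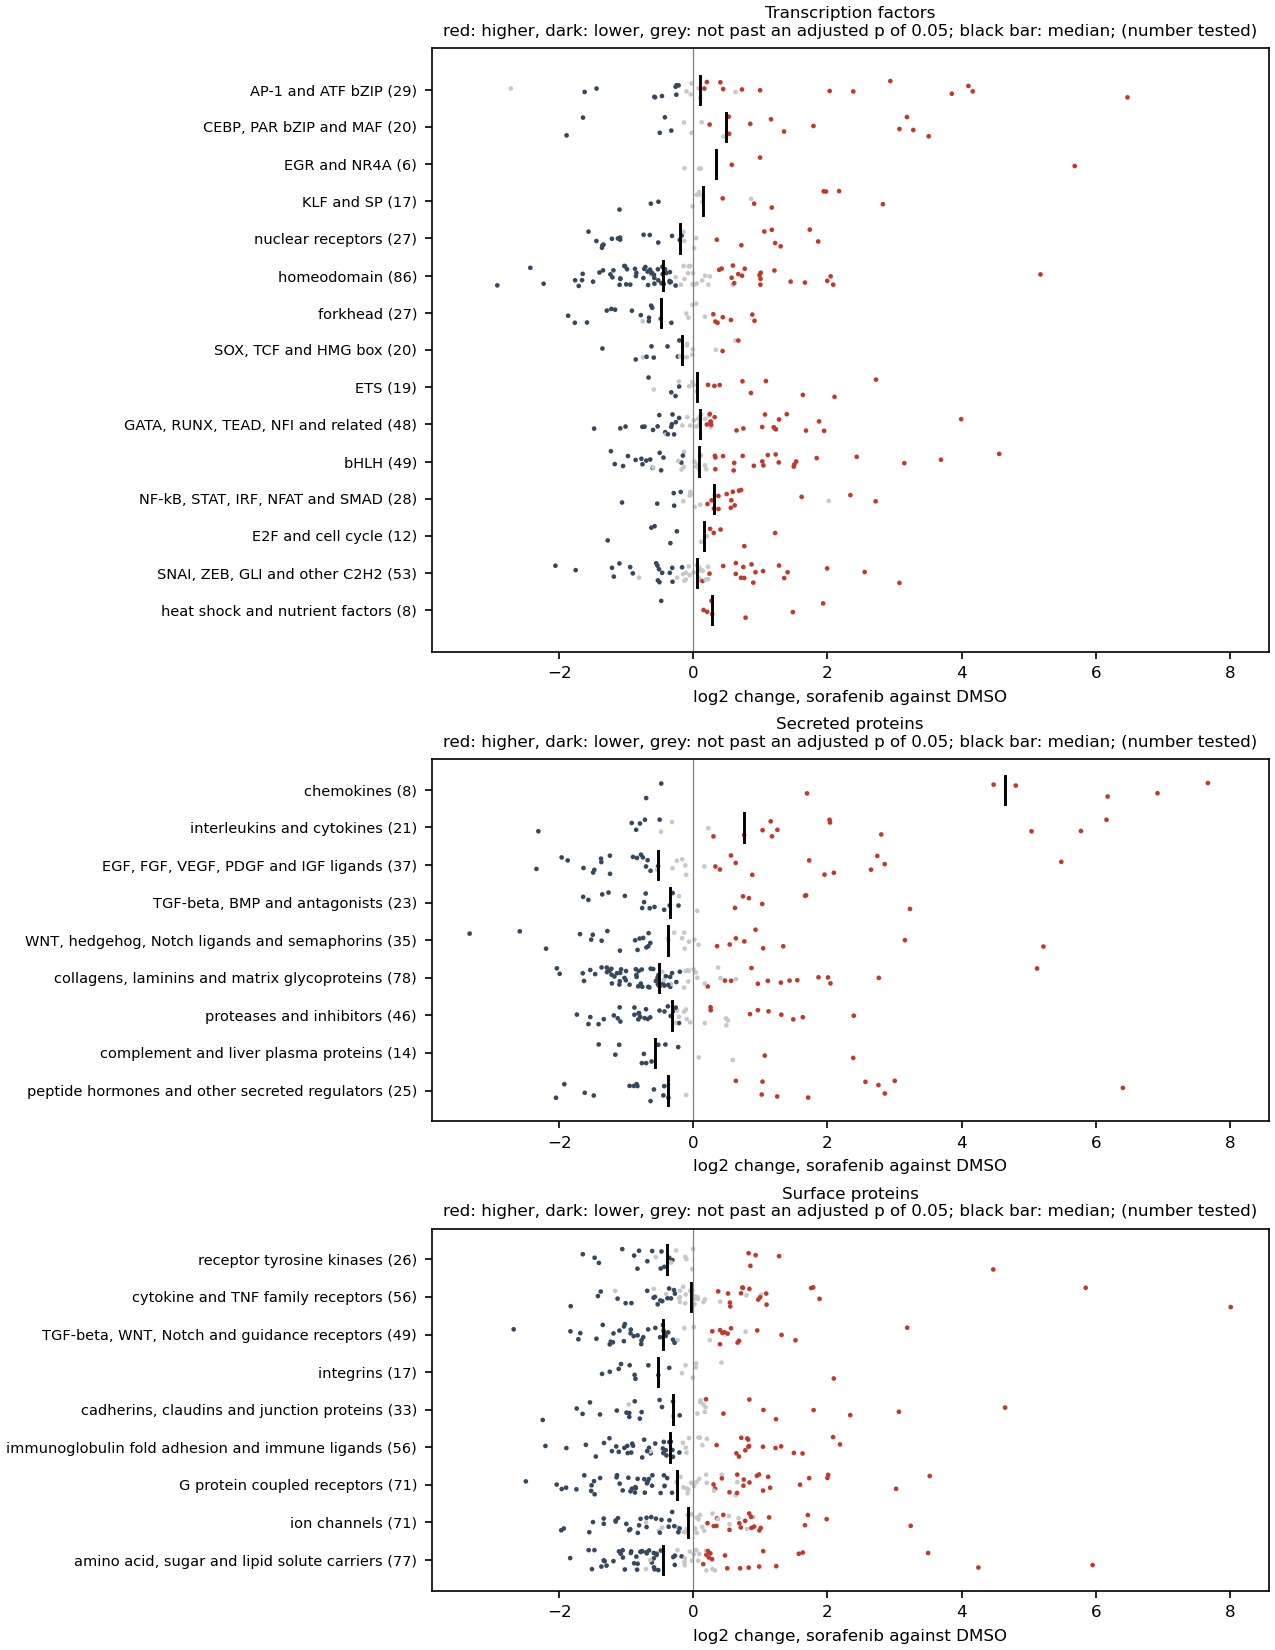
log2 change of each tested member of the transcription factor, secreted and surface families, 1 point per gene, red for higher, dark blue for lower and grey for genes not past an adjusted p of 0.05, with the family median as a black bar. Chemokines have the highest median (4.64), over only 8 tested of 41 listed, 3 of which passed the minimum through their sorafenib values. Most secreted and surface families lie below 0 with the deposited scaling.

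Noncoding and clone-named genes were more often higher than lower. Of 2160 tested, 1145 (53.0%) were higher and 321 (14.9%) lower, against 34.4% and 35.8% of all genes tested. The median log2 change was 0.73. Without DMSO replicate 3 the counts were 1133 and 304. Many entered through one group: 534 had a DMSO mean under 10 and 116 a sorafenib mean under 10, so these counts describe the genes that passed the minimum. With a mean of at least 100, 218 were higher and 104 lower. The 841 genes that are noncoding by biotype or name gave 466 and 122, a median of 0.71, and the 1319 clone-named genes, for which no biotype was at hand, gave 679 and 199. Protein-coding genes had 3767 of 12110 higher and 4855 lower, with a median of -0.08 that became 0.14 after scaling to the library total, with 5289 higher and 3159 lower.

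The share of reads in noncoding genes was larger with sorafenib. It was 1.68%, 1.76% and 1.76% of reads with sorafenib and 0.89%, 0.89% and 0.88% with DMSO (exact permutation p = 0.1, the smallest possible). Part of this was mitochondrial ribosomal RNA, MT-RNR1 and MT-RNR2 together, at 0.61% to 0.74% against 0.31% to 0.33%. Without mitochondrial genes the noncoding share was 1.02% to 1.07% with sorafenib and 0.52% to 0.54% with DMSO, and the groups did not overlap.

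Groups of noncoding RNA with a name for their position or content differed in size of change. Of 60 divergent transcripts, made from a protein gene's promoter in the opposite direction, 48 were higher and 5 lower (median 1.45), where 34.4% and 35.8% of all genes were. Of the 60, 15 had a DMSO mean under 10 and entered through sorafenib, and 33 of the 48 had a DMSO mean of 10 or more. DNAJC3-DT had 273, 270 and 229 normalized read counts with sorafenib and 34.9, 26.0 and 21.8 with DMSO (log2 rise 3.20, SE 0.18). NFE2L1-DT had 219, 190 and 198 against 28.1, 23.1 and 18.6 (3.08, SE 0.18). MAFG-DT went against them (-1.399). Of 21 snoRNA host genes, whose introns carry small nucleolar RNAs, 17 were higher and 3 lower (median 1.34), and none had a mean under 10 in either group. SNHG12 (chr1:28578538-28582983) had 4639, 4427 and 4011 against 440, 429 and 450 (3.30, SE 0.07). SNHG1, the most abundant of this group, rose by 2.55 from 2039 ± 53.9 to 11924 ± 279, and SNHG14 (-1.36), SNHG16 (-0.46) and SNHG6 (-0.16) fell.

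Antisense transcripts, named for the gene on the other strand, were higher in 190 of 353 cases and lower in 45, and 68 of the 353 had a DMSO mean under 10. KMT2E-AS1 had 482, 494 and 413 with sorafenib and 31.5, 27.96 and 45.8 with DMSO (log2 rise 3.71, SE 0.17), and COA6-AS1 had 201, 176 and 186 against 16.9, 23.1 and 26.2 (3.05, SE 0.19). The strand used in counting is not given in the sources used here, so reads of antisense or divergent transcripts and of genes that overlap them cannot be told apart. Of 203 long intergenic transcripts with LINC names 111 were higher and 28 lower, and 47 had a DMSO mean under 10. Of 48 tested long noncoding RNAs with names of their own 27 were higher and 9 lower. NEAT1, the scaffold of nuclear paraspeckles, rose from 4450 ± 407 to 21743 ± 1431 (log2 change 2.29). MALAT1, a nuclear RNA of speckles, rose by 1.25, PVT1 by 1.70, and NORAD, a cytoplasmic RNA that binds Pumilio proteins, fell by 1.54. H19 did not pass the threshold (adjusted p = 0.26), with 439, 62.5 and 415 normalized read counts with sorafenib and 382, 493 and 3587 with DMSO, the high value being DMSO replicate 3.

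Among noncoding and clone-named genes with a mean of 100 or more, the 5 largest rises were in genes known only by clone names, which may or may not be noncoding. AL606500.1 had 427, 463 and 441 with sorafenib and 2.25, 3.86 and 7.64 with DMSO (log2 rise 6.43, SE 0.28). AL033523.1 had 275, 294 and 304 against 3.37, 5.78 and 2.18 (6.00, SE 0.27). AL357033.4 (4.50), AL357033.3 (4.26) and AC109326.1 (4.10) followed. Groups that do not overlap were a condition for choosing these 5 genes, and their positions and biotypes were not analysed here.

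Mitochondrial RNAs moved in opposite directions. Of 10 tested mitochondrial tRNA and rRNA genes both rRNAs were higher and all 8 tRNAs were lower. MT-TY had 7.60, 9.06 and 9.61 with sorafenib and 324, 254 and 256 with DMSO, a log2 change of -4.83 (SE 0.20). MT-TC had 114, 136 and 128 against 2395, 2305 and 2867 (-4.31, SE 0.09). MT-TL1 had 10.1, 25.4 and 13.9 against 232, 234 and 238 (-3.85, SE 0.25). Transfer RNAs carry no poly(A) tail when mature and lie between longer genes in the mitochondrial genome, so reads of precursors, of neighbours and of the other strand could be counted in them. MT-RNR1 rose by 1.30 and MT-RNR2 by 0.75.

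**Figure D5:**
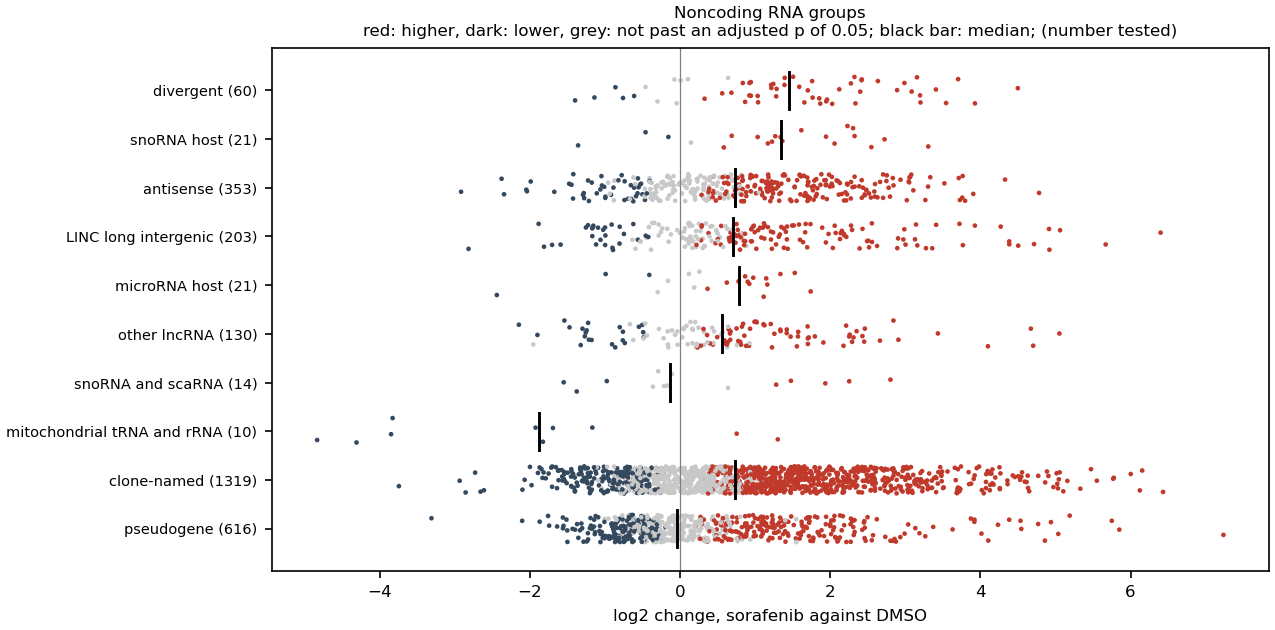
log2 change of each tested gene in 9 groups of noncoding RNA and in pseudogenes, 1 point per gene, red for higher, dark blue for lower and grey for genes not past an adjusted p of 0.05, with the group median as a black bar. Divergent transcripts and snoRNA host genes have medians of 1.45 and 1.34, and mitochondrial tRNA and rRNA genes one of -1.88.

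The 4 largest gains and 4 largest losses in normalized read counts were in abundant genes. MT2A and MT1E, metallothioneins that bind zinc and copper, gained 53986 and 33873 normalized read counts, MT2A from 5235, 5770 and 6631 to 63023, 57146 and 59424. Metallothionein genes are near-identical copies and their reads could be divided between them by the counting. MT-RNR2 gained 38373 and SLC30A1, the zinc exporter of the plasma membrane, 19336, from 2479 ± 144 to 21815 ± 716. The largest losses were in mitochondrial messenger RNAs and a translation factor, and mitochondrial genes in all took 3.38% to 3.64% of reads with sorafenib and 4.75% to 5.09% with DMSO. MT-CO1, a subunit of cytochrome oxidase, went from 307664, 278020 and 283412 to 117459, 121599 and 124321, MT-CO2 was left with 27.2% of its DMSO mean and MT-CO3 with 53.9%. EEF1A1, translation elongation factor 1 alpha, went from 177021 ± 6276 to 117325 ± 1373, which was 66.3% of its DMSO mean.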

How the data were processed

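RNA values came from 1 deposited table of 6 columns, each tied to a sample by the replicate number in its name. Per the submitters' processing notes the software included DESeq2 and featureCounts 1.6.1, the aligners Bowtie2 2.4.1 and HISAT2, the peak caller MACS2 2.2.7.1, and cutadapt, SAMtools and Picard, on hg38. Roles and order are not given in the sources used here. The signal values deposited by the authors were normalized read counts. Checked against the file, every column times its size factor gave whole reads within 0.001 for 100% of genes. The authors' deposited table also gave a log2 fold change and an adjusted p-value per gene. In the deposited peak lists the authors' ratio was a fold enrichment and their significance a −log10 q, at a lowest value of 1.30 to 1.31 in each list.

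Genes with a mean of at least 10 were tested on log2 of the normalized read count plus 1 with limma 3.58.1 (R 4.3.3; trend, robust, two-sided, Benjamini-Hochberg threshold 0.05), 3 libraries against 3. A fold change on this scale understates that of low genes. Members and lists were chosen with earlier results of these data known. Named genes were, per class, the 5 largest rises and 3 largest falls with a mean of at least 100, groups that do not overlap and an adjusted p under 0.05, and over all genes the 4 largest gains and 4 largest losses of normalized read counts. DNMT1, MT1G, KLF4 and CA9 were left out. Noncoding genes by biotype or name (5 rises), family examples and other genes printed were chosen after their values were seen.

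Kinds of gene, positions and promoters came from RefSeq (GRCh38.p14), matched by symbol or older symbol for 13530 of 14915 genes (90.7%), with a promoter for 10581 (70.9%). A peak counted when it shared at least 1 base with the promoter. With the pipeline tested on simulated data (14772 genes), 76.1%, 82.1% and 95.5% of genes changed 1.5-, 2- and 4-fold were called, with 10 false calls. The simulation changed 67, 67 and 66 genes, all above the minimum mean, and took the size factors as known. Far more genes were called in the data, so these 10 false calls do not measure the error there. Alternatives were TMM factors, library-total scaling, other minimum means and pseudocounts, DESeq2 1.42.0 and edgeR 4.0.16 on recovered reads, other orders of abundance, fits that left out 1 library and a fit with the replicate number as a block. Reads per library limit precision for low genes. The floor for a group at 0 was 3 reads. Tables and exact tests used Python 3.11.15, pandas 2.3.3 and SciPy 1.17.1. Values of a few listed genes are not reported here.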

Additional observations from a re-analysis of the deposited data

How the results depend on the processing

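All 45 named genes kept their direction and their call in every alternative run. The 5137 higher genes became 3372 with a mean of at least 100 and 2175 with an absolute log2 change of at least 1, and the 5347 lower genes became 3496 with library-total scaling and 1024 with that log2 change. The same log2 change left 76 higher and 53 lower transcription factors, 63 lower secreted genes, 48 higher and 81 lower surface genes and 159 lower noncoding genes. With a mean of at least 100, 46 secreted, 69 surface and 218 noncoding genes were higher and 104 noncoding genes lower. Without a filter on low values, 133 secreted, 179 surface and 2306 noncoding genes were higher and 502 noncoding genes lower.

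The lowest decile by abundance (median log2 change 0.52) moved to 0.18 with a mean of at least 100, 0.38 with a pseudocount of 5, 0.73 with library-total scaling and 1.54 in the order of the DMSO mean, and reversed to -0.12 in the order of the sorafenib mean. The highest decile (-0.32) moved to -0.28 with TMM factors, -0.34 with a mean of at least 100, -0.086 with library-total scaling, -0.38 in the order of the DMSO mean and -0.22 in that of the sorafenib mean. For these, beyond fewer genes tested, the cause was not tested. Leaving out 1 library gave 4715 to 5180 higher and 4958 to 5405 lower genes, 0.47 (without DMSO replicate 3) to 0.58 (without sorafenib replicate 3) in the lowest decile and -0.34 to -0.29 in the highest. DESeq2 called 5025 higher and 4906 lower genes and edgeR 5378 and 5079. With the replicate block 4992 genes were higher and 5201 lower. Libraries of the same number deviated together with r of -0.14, 0.03 and -0.22, not every library correlated best with its own number, and the numbers were not taken as pairs. For the genes named by rule, the authors' deposited table gave log2 fold changes of the same sign for all 45, with a median absolute difference of 0.02 and the largest, 2.36, for NGFR, which had no DMSO reads.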

Other observations

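The length of a gene on the chromosome had no steady relation to its change. Protein-coding genes were divided into quintiles by the span of the RefSeq gene. The median log2 changes were -0.13, -0.03, -0.06, -0.05 and -0.13 from the shortest quintile (276 to 10008 bases) to the longest (from 92667 bases). In the longest quintile 25.4% of genes were higher, against 31.2% to 33.5% in the other quintiles.

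Of 616 tested pseudogenes 213 (34.6%) were higher and 164 lower, and the higher share was near the 34.4% of all genes tested. Their median of -0.04 became 0.18 after scaling to the library total, with 242 higher and 111 lower, and 67 had a DMSO mean under 10. Small nucleolar RNAs with names of their own were few: of 14 tested, 5 were higher and 3 lower, and all 5 rises had a DMSO mean under 10. Their host genes, described above, rose in 17 of 21 cases. Among microRNA host genes 13 of 21 were higher and 3 lower, and 2 had a DMSO mean under 10, with MIR100HG at 1.11 and MIR193BHG at -0.99 (log2 change).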
